A study of Mus musculus with 2 samples.

Results

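Nuclear receptors form a family of transcription factors that share a DNA-binding domain of zinc fingers, and many of them are switched on by small lipophilic ligands. The thyroid hormone receptor (TR) belongs to this family and usually binds DNA together with a retinoid X receptor (RXR). The occupancy of TRα1 was examined here at 39 genes that encode other members of the family, among 21938 protein-coding genes in all. The genes were listed by name, and a TR binding site (TRBS) was assigned to a gene when its summit, where the ChIP pileup peaks, lay at most 30 kb from the gene start. This gave 15 of the 5107 deposited TRBS, at 11 of the 39 genes. The list is not the whole family: the thyroid hormone receptor genes, the PPAR genes, Nr1d1 and Nr1d2, among others, are not in it.

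Brown adipose tissue was taken from C57BL/6J males, 8-12 weeks old, in which brown adipocytes alone expressed TRα1 with a GS tag. All mice received food with propylthiouracil, which blocks thyroid hormone synthesis, for 2 weeks, and then thyroid hormone during the last 24 h. There was 1 ChIP library, made with an antibody that precipitates the receptor, and 1 input library from chromatin with the same genotype and treatment. Without replicates, no replicate error and no test between conditions could be given, and the intervals below cover counting error only. The driver of adipocyte expression and the number of mice per library are not given in the sources used here. The occupancy is that of a tagged receptor, and a peak list holds no expression values with which to check the cell type.

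In this tissue several members have known roles. ERRα and ERRγ, encoded by Esrra and Esrrg, drive genes of mitochondrial oxidation with the coactivator PGC-1. The RXR proteins are partners of TR, of the PPAR proteins and of the LXR proteins. Nr4a1 is an immediate early gene that responds to adrenergic stimulation, and LXRα, encoded by Nr1h3, senses oxysterols.

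The repeats that carry TR and RXR are pairs of the half-site AGGTCA on 1 strand, called DR followed by the spacer length in bp. The repeats found in the sites of these genes are shown first, since the results refer to them. They were searched on both strands with spacers of 0 to 6 bp and at most 2 mismatches over the 12 half-site bases. All sequences are GRCm38, read 5′ to 3′ on the strand given. The half-sites stand in capitals, with 7 flanking bases on each side. The DR4, with a spacer of 4 bp, is the element known for TR, and 3 of the 15 sites held one:

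Esr1 upstream site, DR4, chr10:4586867-4586882, plus strand: gtagctgGGGTGActcaAGGTCAtggttcc

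Rara intronic site, DR4, chr11:98949898-98949913, minus strand: ccagtgcGGGTTAcctgAGGTCAagaaaca

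Esrrg promoter site, DR4, chr1:187609078-187609093, minus strand: acaaaacAAGTCAccggAGGCCAgcgagac

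The elements at Esr1 and Rara both had an intact downstream half-site and 2 mismatches in the upstream one. With positions counted from 1 at the 5′ end of a half-site, the changes from AGGTCA were A1G and C5G at Esr1, and A1G and C5T at Rara. Their centres lay 9.5 and 17.5 bp from the summits. The element at Esrrg had 1 mismatch in each half-site, G2A and T4C, and its centre was 433.5 bp from the summit, in an exon of Esrrg. No site held a DR4 with at most 1 mismatch, which 7.23% of all TRBS held. With 0 of 15 sites, a share of up to 20% is allowed by 3 counts.

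Repeats with other spacers are shown for the sites at which they had 1 mismatch or lay within 30 bp of the summit:

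Nr2c1 site, DR1, chr10:94148241-94148253, minus strand: tccctttAGGTGAaAGGTCAccggccc

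Rxra intronic site, DR2, chr2:27702682-27702695, minus strand: cttttccAGGTCAccAGGGCAaggaggc

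Esr1 site nearest to the start, DR1, chr10:4605012-4605024, minus strand: tctgacaAGGTCAaCAGTCAgagccct

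Esrrg intronic site, DR5, chr1:187637357-187637373, plus strand: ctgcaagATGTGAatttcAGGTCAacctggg

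The change was C5G in the upstream half-site at Nr2c1 and T4G in the downstream half-site at Rxra. The DR5 of Esrrg was centred 3 bp from the summit, the DR1 of Esr1 24 bp, the DR1 of Nr2c1 57 bp and the DR2 of Rxra 184.5 bp. A match to these letters is a description of the sequence and not evidence of binding, and the share of other regions with such a match is given with the motif results.

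Of the 39 genes, 11 (28.2%, 95% Wilson interval 16.5 to 43.8%) had a TRBS within 30 kb, against 16.7% of all protein-coding genes. The 15 sites made 0.385 sites per gene, against 0.247 for all protein-coding genes. More than 1 site was present at 3 of the 39 genes, Rxrb with 3 sites and Esr1 and Esrrg with 2 each, or 7.69% (2.65 to 20.3%), against 4.55% of all protein-coding genes. The remaining 8 genes with a site had a single one. Among genes with a site, 27.3% of these genes and 27.3% of all protein-coding genes had more than 1. The lower bound for the 39 genes lay just under the background share. With a site given only to the nearest gene the share was 23.1% (12.6 to 38.3%) against 9.87%, and the lower bound lay above it. With any transcript start the shares were 28.2% and 19.6%, with a score of at least 60 they were 23.1% and 14.1%, and with a fold of at least 5 they were 23.1% and 15.6%. In these 3 settings the background lay inside the interval. No replicate error was available and genes are not replicates, so the difference in share was not tested.

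The comparison depended on the distance. Within 1 kb of the start, 4 of the 39 genes had a site, Esrrg, Rxrb, Nr2c1 and Nr4a1 (10.3%, 4.06 to 23.6%), against 3.02% of all protein-coding genes. Within 10 kb there were 6 genes (15.4%, 7.25 to 29.7%), with Esr1 and Nr1h3 in addition, against 8.09%. Within 100 kb there were 16 genes (41.0%, 27.1 to 56.6%), against 38.3%. The 39 genes differed from the background in build. Their median length was 47125 bp, against 17425 bp for all protein-coding genes, and the median number of other coding starts within 30 kb was 0, against 1. The part of gene length and gene density in the shares was not tested.

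**Figure D1:**
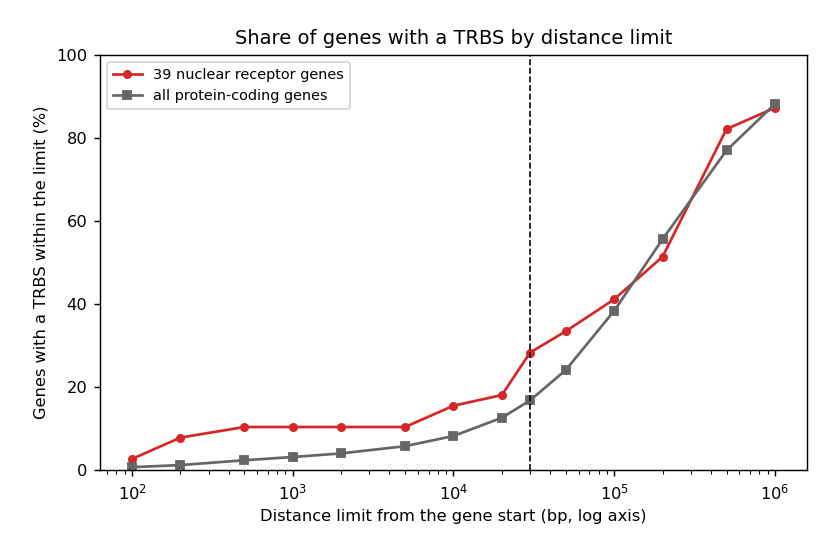
The share of genes with a TRBS (percent, y axis) is plotted against the distance limit from the gene start (bp, log x axis) for the 39 nuclear receptor genes (red circles) and all 21938 protein-coding genes (grey squares), with 30 kb dashed. The red line is above the grey one at each limit up to 100 kb, where the shares are 41.0% and 38.3%.

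The limit of 30 kb separated neighbouring values of a continuous range. Just inside were the second site of Esrrg at 28571 bp and the sites of Rxra at 26064 bp and Nr6a1 at 25997 bp. Just outside were further sites of Rxrb at 31833 bp and Esrra at 32669 bp, upstream of the start, of Rora at 37036 bp and Rara at 37219 bp, downstream, and of Nr3c1 at 39061 bp. Of these genes, Rora and Nr3c1 had none inside the limit.

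**Figure D2:**
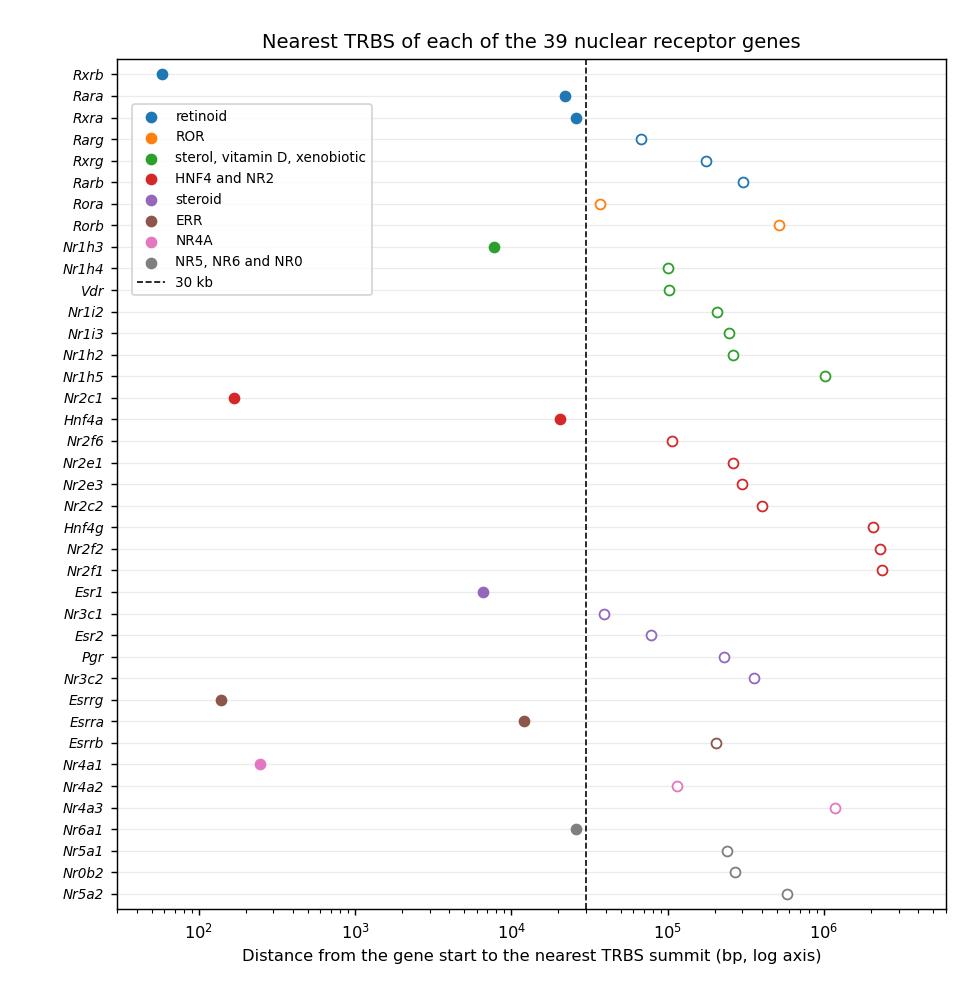
Each point is 1 of the 39 genes, placed by the distance from its start to the nearest TRBS summit (bp, log axis) and coloured by role, with 30 kb dashed and filled points inside the limit. Distances run from 58 bp for Rxrb to 2356287 bp for Nr2f1, and each role except the ROR genes has at least 1 gene inside the limit.

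Retinoid receptors bind derivatives of vitamin A. Of these 6 genes, 3 had a site (50%, 18.8 to 81.2%), against 16.7% of all protein-coding genes, with 5 sites in all. The role groups are small and were drawn up with earlier results known, so no group was tested. Rxrb (chromosome 17: 34031812 to 34038399, plus strand) encodes RXRβ. A site with 27 fragments at the summit (95% Poisson interval 17.8 to 39.3) and a fold of 9.91 over input covered its start at 34031598 to 34031895, with the summit 58 bp upstream. A site with 31 fragments (21.1 to 44.0) and a fold of 10.2 followed at 34032351 to 34032832, 787 bp downstream. By fragments these sites ranked next after the promoter site of Esrrg, but their intervals overlapped each other and that of the Esr1 site with 22 fragments, and by fold the sites of Esr1 (14.5) and Hnf4a (11.9) ranked above both. The third site of Rxrb lay 22424 bp upstream at 34009230 to 34009522 with only 8 fragments (3.45 to 15.8), and it was nearer to the start of H2-K1.

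The region around Rxrb is dense in genes, and the sites could not be given to Rxrb alone. Each of the 3 sites had 5 protein-coding starts within 30 kb. The 2 sites near the start also lay in the promoter window of Slc39a7, a zinc transporter gene on the other strand. The window is 1000 bp upstream to 100 bp downstream of a start. Input background was also raised there, with 1.83 and 2.13 fragments on the ChIP scale against a median of 0.672 for all TRBS. Neither site held a DR4. The downstream site held 2 exact half-sites, in capitals below, which face each other around the summit at 34032599:

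Rxrb downstream site, summit window, chr17:34032569-34032629, plus strand: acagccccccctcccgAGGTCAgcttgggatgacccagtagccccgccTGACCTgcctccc

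Rxra (chromosome 2: 27676440 to 27762957) encodes RXRα. It had 1 intronic site at 27702377 to 27702698, 26064 bp downstream of the start, with 11 fragments (5.49 to 19.7) and a fold of 7.46. This site was 6788 bp from a start of another Rxra transcript. Rara (chromosome 11: 98927818 to 98974942), which encodes the retinoic acid receptor RARα, had 1 intronic site with the DR4 shown above. It lay 22105 bp downstream of the start at 98949663 to 98950186, with 17 fragments (9.90 to 27.2) and a fold of 9.41. The other 3 retinoid receptor genes had no site within the limit. Their nearest summits were 67699 bp away for Rarg, 175329 bp for Rxrg and 303334 bp for Rarb. The Rarb summit lay inside the gene, which is 388318 bp long.

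The estrogen-related receptors (ERR) are orphan receptors close to the estrogen receptors. Of the 3 genes, 2 had a site (66.7%, 20.8 to 93.9%), against the same 16.7%, and Esrrg had the strongest of the 15. Esrrg (chromosome 1: 187608791 to 188214885, plus strand) carried a site of 1269 bp at 187608346 to 187609614 with its summit 139 bp upstream of the start. It had 76 fragments (59.9 to 95.1) over an input background of 0.430 fragments, and a fold of 53.8. This background was the lowest recovered for any TRBS and was shared by the sites of Hnf4a and Nr1h3. The score of the Esrrg site, 1363, was rank 97 of the 5107 TRBS and its fold was rank 55. By fragments it was rank 128 of the 5089 TRBS with a recovered count. The interval of this site did not overlap that of any other of the 15 sites. Esrrg was the only protein-coding gene within 30 kb.

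The Esrrg promoter site did not hold the half-site AGGTCA anywhere in its 1269 bp. Among the 133 TRBS with at least 76 fragments, 68.4% (60.1 to 75.7%) held an exact half-site and 52.6% (44.2 to 60.9%) held a DR4. Among the 611 TRBS within 1 kb of a coding start, these shares were lower, 38.0% (34.2 to 41.9%) and 22.7% (19.6 to 26.2%). The Esrrg promoter site belongs to both sets. The only DR4 of this site with at most 2 mismatches was the one far from the summit shown above. The bases around the summit are given because this was the strongest site. They lie wholly upstream of the annotated start and have a GC content of 55.7% with 6 CpG:

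Esrrg promoter site, summit window, chr1:187608552-187608752, plus strand: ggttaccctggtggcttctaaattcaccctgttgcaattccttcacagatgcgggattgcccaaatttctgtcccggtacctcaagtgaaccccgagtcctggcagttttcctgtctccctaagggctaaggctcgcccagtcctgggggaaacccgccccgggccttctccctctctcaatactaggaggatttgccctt

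The other site of Esrrg within the limit was intronic, 28571 bp downstream at 187637209 to 187637570, with 12 fragments (6.20 to 21.0) and a fold of 8.08. Its half-site lay 8.5 bp from the summit, in the DR5 shown above. Esrra (chromosome 19: 6910977 to 6921813) had the weakest of the 15 sites, with 5 fragments (1.62 to 11.7), a fold of 3.78 and a score of 14. That site, at 6909622 to 6909971, was beyond the 3′ end of Esrra and 52 bp downstream of the start of Trmt112, in a region with 5 coding starts within 30 kb. Esrrb had no site within 202226 bp.

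The steroid receptor group holds the receptors of sex steroids, glucocorticoids and mineralocorticoids. A site within the limit was present at 1 of its 5 genes (20%, 3.62 to 62.4%), against 16.7% of all protein-coding genes. Esr1 (chromosome 10: 4611593 to 5005614, plus strand) encodes the estrogen receptor ERα. It had a site 6599 bp upstream at 4604677 to 4605336, with 22 fragments (13.8 to 33.3) and a fold of 14.5, and another 24728 bp upstream at 4586612 to 4586980, with 15 fragments (8.40 to 24.7) and a fold of 8.36. Both were intergenic, and Esr1 was the only coding gene within 30 kb. The second was 47.7% repeat sequence by the masking of the assembly, the highest of the 15, and held the DR4. The 3 bases before its intact half-site made it also a TCAAGGTCA, the element known for ERR, which was present in 2.29% of all TRBS. No TRBS was detected within the limit for Nr3c1 (39061 bp to the nearest), Esr2 (78519 bp), Pgr (229565 bp) and Nr3c2 (355222 bp).

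The HNF4 and NR2 group is made up mostly of orphan receptors. Of its 9 genes, 2 had 1 site each (22.2%, 6.32 to 54.7%), with 16.7% inside the interval. Nr2c1 (chromosome 10: 94148023 to 94197211) encodes the testicular receptor TR2. Its site at 94148005 to 94148354, with the summit 167 bp downstream of the start, had 11 fragments (5.49 to 19.7) and a fold of 6.24. With 71.7% GC it was the most GC-rich of the 15. Its half-site belonged to the DR1 shown above and was also an AAAGGTCA, the NBRE element known for NR4A receptors, which was present in 6.50% of all TRBS. Hnf4a (chromosome 2: 163506808 to 163572910) encodes a liver and gut regulator. It had 1 intronic site at 163526928 to 163527464, 20395 bp downstream, with 16 fragments (9.15 to 26.0), a fold of 11.9, no DR4 and no half-site. The others had their nearest summit at 105956 bp for Nr2f6, 259984 bp for Nr2e1, 296311 bp for Nr2e3 and 400290 bp for Nr2c2. For Hnf4g (2068526 bp), Nr2f2 (2269568 bp) and Nr2f1 (2356287 bp) it was farther still.

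Receptors for sterols, bile acids, vitamin D and xenobiotics made up 7 genes, of which 1, Nr1h3, had a site (14.3%, 2.57 to 51.3%), against 16.7% of all protein-coding genes. Nr1h3 (chromosome 2: 91184061 to 91202834, minus strand) had a weak site at 91194914 to 91195236, 7731 bp downstream of the gene start, with a fold of 4.90 and a score of 32. It had 6 fragments (2.202 to 13.1), the closer of 2 whole numbers that met the tolerance. Its summit lay in a 5′ UTR and 13 bp from the start of another Nr1h3 transcript. The nearest summits were at 99830 bp for Nr1h4, 101904 bp for Vdr, 205866 bp for Nr1i2, 245935 bp for Nr1i3, 262199 bp for Nr1h2 and 1010307 bp for Nr1h5. Nr1h4 encodes the bile acid receptor FXR, Vdr the vitamin D receptor, Nr1i2 and Nr1i3 the xenobiotic receptors PXR and CAR, and Nr1h2 the oxysterol receptor LXRβ.

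Of the 3 NR4A genes, Nr4a1 (chromosome 15: 101254269 to 101274795) had 1 site in its promoter, or 33.3% of the group (6.15 to 79.2%), with 16.7% inside the interval. It lay at 101253913 to 101254195 with the summit 248 bp upstream, 11 fragments (5.49 to 19.7) and a fold of 6.52. This was the narrowest of the 15 sites, 283 bp, and had 71.4% GC, no DR4 and no half-site. Nr4a2 and Nr4a3 had their nearest summits at 114440 and 1174933 bp. Among the other 4 genes (1 with a site, 25%, 4.56 to 69.9%, with 16.7% inside the interval), Nr6a1 had 1 site 25997 bp upstream (chromosome 2: 38953540 to 38953865) with 10 fragments (4.80 to 18.4) and a fold of 7.23. It lay in an intron of Olfml2a and was nearer to the start of that gene. Nr5a1, Nr0b2 and Nr5a2 had no site within 239143, 270976 and 579633 bp. Nr5a1 encodes a steroidogenic regulator and Nr0b2 the corepressor SHP. Neither of the ROR genes had a site within the limit, a count of 0 of 2 that cannot be told from 16.7%, with 37036 bp to the nearest for Rora and 516122 bp for Rorb.

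**Figure D3:**
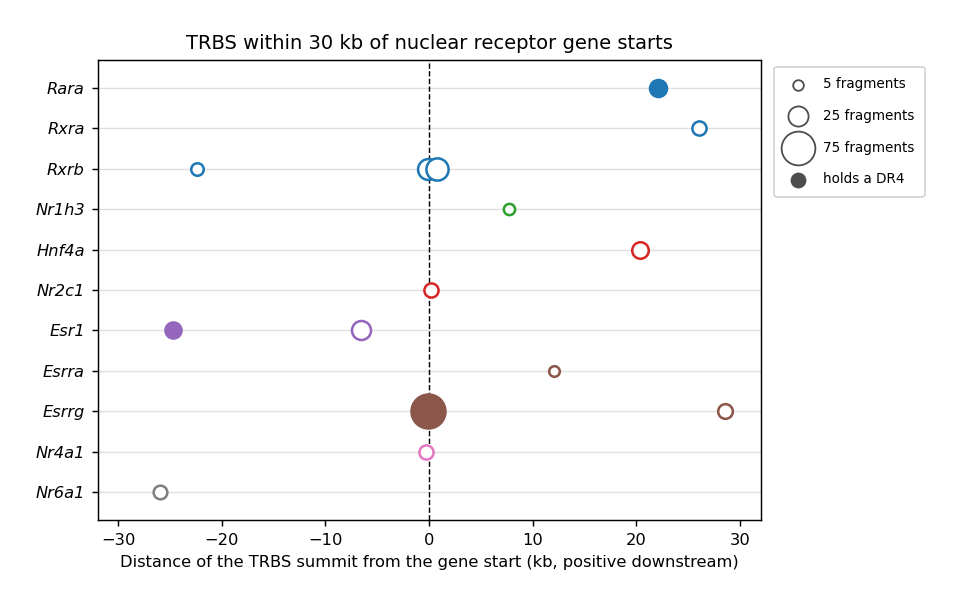
The 15 TRBS are placed by the distance of the summit from the gene start (kb, positive downstream), 1 row for each of the 11 genes. The area of a circle grows with the number of ChIP fragments, colour gives the role as in the plot of nearest sites, and filled circles hold a DR4. The site at the start of Esrrg, with 76 fragments, is the largest, and the sites at Rara, Esr1 and Esrrg are the 3 with a DR4.

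The 15 sites fell on both sides of the starts, with 7 upstream and 8 downstream. The gene of the list had the nearest start for 12 of the 15, and it was the only coding gene within 30 kb for 8. Over all protein-coding genes, 2913 TRBS made 5410 pairs of a gene and a site within 30 kb. Each TRBS has 1 nearest start, so 2913 of those 5410 pairs joined a site to its nearest gene. A background for the count of 8 was not computed. At the summit, 5 sites (33.3%, 15.2 to 58.3%) were in a promoter, of which 2, the downstream Rxrb site and the Esrra site, were in promoters of neighbouring genes only. This share was 12.7% (11.5 to 13.96%) among the 2913 TRBS within 30 kb of any protein-coding start. Introns held 6 sites (40%, 19.8 to 64.3%), against 49.3%. Intergenic sequence held 3, and 1 was in a 5′ UTR.

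Most of the sites were of ordinary or low strength. The median number of fragments was 12, against 17 for all TRBS, and the median fold was 8.08, against 9.83. Of the 15 sites, 10 had fewer than 17 fragments, but the Poisson interval of 9 of the 15 included 17. The sites with intervals wholly above 17 were those at the starts of Esrrg and Rxrb. The study's score threshold of 60 was reached by 12 of the 15 sites (80%), and by 82.4% of all TRBS. The 3 below it were at Esrra, Nr1h3 and the upstream site of Rxrb. A summit lay within 1 kb of the start of a protein-coding gene, in the list or not, at 6 sites, with 5 to 76 fragments and a median of 19. The 9 others had 6 to 22 fragments with a median of 12, so that the ranges overlapped. The median GC content was 66.7% in the first and 52.9% in the others. Among all TRBS it was 62.0% within 1 kb of a coding start and 50.5% beyond, and the median number of fragments was 17 in both.

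**Figure D4:**
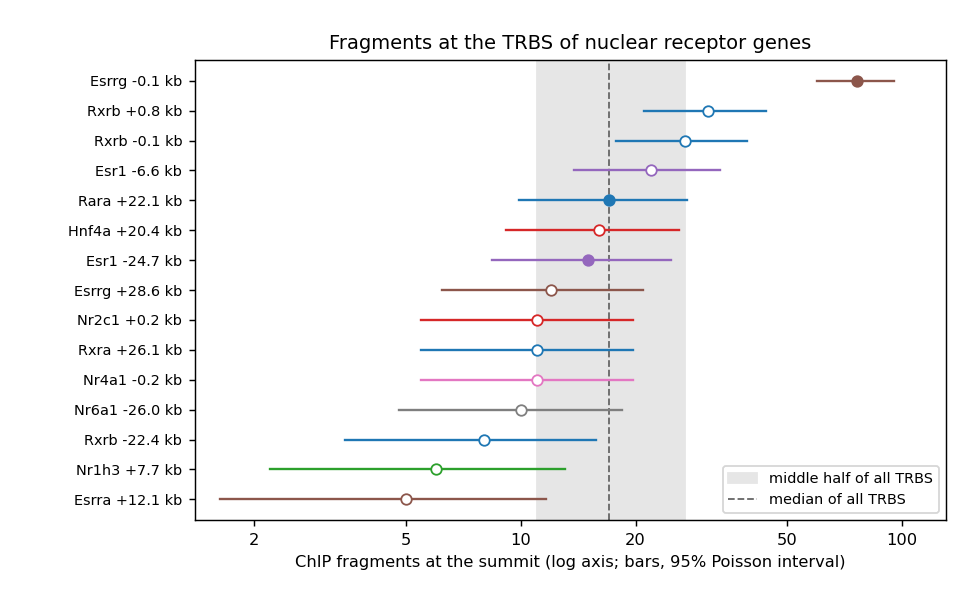
Points give the ChIP fragments at the summit of each of the 15 TRBS (log axis) with 95% Poisson intervals, labelled by gene and distance from the start and coloured by role as in the other plots. Filled points hold a DR4, the dashed line is the median of all TRBS (17 fragments) and the grey band holds the range between their quartiles (11 to 27). The Esrrg promoter site, at 76 fragments, stands apart from the others, which lie between 5 and 31.

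A DR4 was present in 3 of the 15 sites (20%, 7.05 to 45.2%), against 31.98% of all TRBS, 30.3% of those within 30 kb of a coding start, and 5.44% of 9870 flanking windows of the same width. By place, it was 22.7% of TRBS within 1 kb of a coding start, where 6 of the 15 sites lay, and 33.2% of those beyond. With 15 sites, a difference from all TRBS was not detectable. The exact half-site AGGTCA was in 8 sites (53.3%, 30.1 to 75.2%), against 56.0% of all TRBS and 27.6% of flanks, and it is part of the TCAAGGTCA and AAAGGTCA elements. In 6 sites (40%, 19.8 to 64.3%) a half-site was centred within 30 bp of the summit, against 23.7% of all TRBS, which lies inside the interval. These were the 2 sites of Esr1, the intronic sites of Rara and Esrrg, and the upstream and downstream sites of Rxrb.

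At least 1 repeat with another spacer was present in 6 of the 15 sites (40%, 19.8 to 64.3%), against 48.4% of all TRBS. The DR0, the DR1 and the DR5 were each present in 2 of the 15 sites (13.3%, 3.74 to 37.9%), the DR2 in 1, and the DR3 and DR6 in none, which allows up to 20%. In all TRBS the shares were 14.96% for the DR0, 14.9% for the DR1, 10.1% for the DR2, 11.7% for the DR3 and the DR5, and 9.73% for the DR6. In flanks they were 8.87, 7.93, 7.59, 5.90, 5.09 and 5.58%, in order of the spacer without the DR4. Each interval for the 15 sites included both values.

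TRBS were also present in gene bodies more than 30 kb from the start. A total of 13 such sites, 37036 to 576957 bp from the start, lay in 5 genes, with 4 in Esr1, 3 each in Esrrg and Rora, 2 in Rarb and 1 in Rara. Rora and Rarb had none within the limit. Such a site was present in 5 of the 39 genes (12.8%, 5.60 to 26.7%), against 3.84% of all protein-coding genes. A gene must be longer than 30 kb to hold one, and among genes of that length it was 5 of 23 (21.7%, 9.66 to 41.9%), against 11%, which lies inside the interval. The median length of these longer genes was 86518 bp in the list and 66460 bp in all. The strongest was in Esr1, 102144 bp downstream of the gene start at 4713393 to 4714152, and its summit was 1086 bp from the start of a shorter Esr1 transcript. It had 98 fragments (79.6 to 119), a fold of 68.1 over a background of 0.454, and rank 53 by score and 24 by fold among the 5107 TRBS. Its fragments were above those of all 15 sites within 30 kb, and its interval overlapped that of the Esrrg promoter site. Both Esr1 and Esrrg thus had a strong site within about 1 kb of an annotated start, the shorter transcript in Esr1 and the gene start in Esrrg.

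Among these 13 intragenic sites, 3 held a DR4 with at most 2 mismatches (23.1%, 8.18 to 50.3%), against 31.98% of all TRBS. They are given because the one in Esrrg was the closest match among these 13 sites and the 15 within 30 kb:

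Esrrg body site, DR4, chr1:187809703-187809718, minus strand: gctgaacAGGGCAgaagAGGTCAaggccag

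Esr1 body site with 98 fragments, DR4, chr10:4713717-4713732, plus strand: agaagccAGGGCAgtccAGGACAcagggga

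Esr1 body site with 13 fragments, DR4, chr10:4732342-4732357, minus strand: accacccAGGCCAacacAGGTGActgtcag

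The Esrrg element had 1 mismatch, T4G in the upstream half-site, and its TRBS, 200953 bp downstream of the start, had 20 fragments (12.2 to 30.9) and a fold of 13.2. The element of the strong Esr1 site had T4G in the upstream and T4A in the downstream half-site, and was centred 12.5 bp from the summit. The third element had T4C and C5G, and was 87.5 bp from its summit. The 3 sites in Rora had 11 to 16 fragments and the 2 in Rarb had 10 and 13, and none held a DR4.

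Over all 39 genes the median distance to the nearest TRBS was 175329 bp, against 161648 bp for all protein-coding genes. Of the 28 genes without a site within 30 kb, 23 had their nearest TRBS at more than 100 kb. A TRBS lay within 100 kb of 41.0% of the 39 genes and 38.3% of all protein-coding genes, so the share beyond 100 kb was near the background. The fewest fragments recovered at the summit of any TRBS were 5. This is not a fixed limit, because a call also depends on the local input background. Weaker occupancy at these 28 genes could have gone undetected at this depth, and a peak list does not show that it is absent.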

How the data were processed

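The authors aligned paired-end reads to GRCm38 (mm10) with Bowtie (Bowtie2 2.3.2.2 in the submitters' processing notes) and ran MACS (MACS2 2.1.1.20160309.6) on 1 ChIP library against 1 input library. The deposited score of a peak is 10 times its −log10 q-value, rounded down, and the deposited −log10 p-value comes from a Poisson test. The deposited fold is the ratio of ChIP pileup to local input background, each plus a pseudocount of 1. The study removed peaks with a score under 60. Here all 5107 were kept, 897 of them under 60.

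Starts were those of GENCODE M21 protein-coding genes, 1 per gene (the 5′ end of the annotated gene). Whole ChIP fragments at a summit were recovered from fold and p with backgrounds over 0.3 tried and a tolerance of 0.0005 on the −log10 p, for 5089 of 5107 peaks. Flanks were windows of equal width 2 kb beyond each edge. Python 3.11.15, scipy 1.17.1 and pysam 0.24.0 were used, and the code was tested on simulated data. Read totals were not used here. The 39 genes, the role groups and the alternatives were chosen with earlier results of these data known. All 39 genes were named, and the sequences shown were chosen after the sites had been searched. Some comparison genes are not reported here, nor are the comparison groups that hold them. The share of genes with intragenic sites was added after the values were seen.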

Additional observations from a re-analysis of the deposited data

How the results depend on the processing

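With 1 ChIP library, depth and the number of genes limit every share. Of 47 recomputed values 34 stayed within 1.5 times the count, the 95% interval or, for medians, the range between the quartiles, and 13 moved. The number of genes with a site was 9 with a score of at least 60, a fold of at least 5, or only the nearest gene counted. Esrra was lost each time, with Nr1h3 under the first 2 and Nr6a1 under the last. A limit of 10 kb gave 6 genes (15.4%), 7 sites and a median of 22 fragments, and 100 kb gave 34 sites. The share of all protein-coding genes moved to 14.1% (score), 15.6% (fold), 8.09% (10 kb), 38.3% (100 kb), 19.6% (any transcript start) and 9.87% (nearest gene, against 23.1% of the 39 genes, 12.6 to 38.3%, the lower bound now above the background). The background stayed inside the interval of the 39 genes in the other settings named here, but not within 1 kb of the start (3.02% against 4.06 to 23.6%). Any transcript start left 11 genes and added 3 sites at Esr1 and 1 at Rara. The DR4 share was 0% with at most 1 mismatch and 53.3% with at most 3, against 7.23 and 72.5% of all TRBS. The cause of these moves was not tested. No paired analysis was possible because there was 1 library per group.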
